A study of Mus musculus with 9 samples.

Results

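Gene expression was compared between Mac1+ bone marrow cells of mice with 3 altered genes, labelled DKOITD, and those of control mice, labelled WT. The comparison holds 7 of the 9 libraries of the series (4 DKOITD and 3 WT) and every gene with an RPKM of at least 1 in at least 2 of the 9 libraries. RPKM is the number of reads per kilobase of gene length, scaled to a library size, so levels can be compared between genes of different length. Here the library size implied by the values was not the number of reads recovered from them. It was 1.13 to 1.44 times that number in DKOITD and 0.703 to 0.810 times in WT. Of the 23420 gene symbols in the table, 10868 reached that minimum. A gene seen only in 1 of the groups reached it through that group alone, so the share of such genes that differ is in part set by the minimum.

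All mice were C57BL/6, and all of them, the controls too, carried both Ezh2 alleles and both Runx1 alleles in floxed form. The mice of the DKOITD libraries (n = 4 libraries) also had Rag1Cre and 1 Flt3 allele with an internal tandem duplication (Flt3 ITD/+). Those of the WT libraries (n = 3 libraries) had neither. No library of the series carries Cre without the duplication, so the effects of the deletions and of the duplication cannot be told apart between these groups. The ITD libraries (n = 2; floxed alleles with Flt3 ITD/+ and no Cre) share the fit, where they add to the estimate of the spread, and are given as values. The labels do not give age, sex or stage of disease, and do not say whether libraries of a group came from separate animals, so p-values measure the spread between these libraries, which may be technical. Each library was made from 100 sorted cells by Smart-seq2, which reads whole transcripts without strand information, so that a gene and its overlapping or antisense partner cannot be told apart.

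Ezh2 methylates histone H3 as the enzyme of polycomb complex PRC2. Runx1 is a DNA-binding regulator of blood development, and Flt3 is a receptor kinase of progenitors and dendritic cells that the duplication makes active without ligand. Rag1 is switched on in early lymphoid progenitors, so Cre acts in those cells and their descendants, and the sources used here do not say in which share of the sorted cells the floxed alleles had recombined. Mac1 is the integrin alpha M chain, encoded by Itgam, and marks neutrophils, monocytes, macrophages and part of the dendritic and NK cells. In marrow, maturing neutrophils fill their primary and then their secondary and tertiary granules with stored proteins under the C/EBP transcription factors. Dendritic cells depend on Flt3 and present peptides on MHC class II molecules, whose genes need the coactivator Ciita.

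The deposited values gave 8836389, 2825728, 7510673 and 13301867 reads in DKOITD 1 to 4 and 23124435, 16085911 and 14770406 in WT 1 to 3. Every DKOITD library had fewer reads than every WT library, and the part of depth in the differences was not tested. WT 2 stood apart, with a median correlation of 0.759 with the other libraries, against 0.815 to 0.881 for those. The numbers in the sample descriptions fall in 2 series, 228 to 274 for DKOITD 1 to 3 and 385 to 393 for DKOITD 4 and all ITD and WT libraries. What the numbers stand for is not given, and apart from DKOITD 4 they divide the libraries as the genotypes do. Neutrophil markers summed to 35406 to 265960 RPKM in DKOITD and 879453 to 1193590 in WT, and conventional dendritic markers to 9391 to 37944 and 44.3 to 1204. A few transcripts set these sums. In DKOITD 1, S100a8 was at 38954 of a neutrophil sum of 57987.5. There H2-Aa, H2-Ab1, H2-Eb1 and Cd74 were at 7069, 12249.9, 3176 and 12463 of a conventional dendritic sum of 37944. In such libraries fewer cells of a type and less RNA per cell cannot be told apart.

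Between DKOITD and WT, 807 genes were called higher (7.43% of those tested) and 573 lower (5.27%). Their median differences were 2.21 up and 1.90 down on the log2(RPKM + 1) scale, beside a median of 0.17 over all tested genes. The libraries of the groups did not overlap for 1537 higher genes (14.1%) and 1185 lower ones (10.9%). This held for 760 of the 807 genes called higher and 547 of the 573 called lower. A lack of overlap therefore adds little to a call, and part of the genes named below were chosen by it. A call is an adjusted p under 0.05 in the fit of all libraries by limma with Benjamini-Hochberg adjustment. The direction of the balance moved with the scaling. After quantile normalization 678 genes were higher and 767 lower (all-gene median -0.03), and per recovered read 2525 were higher and 247 lower (all-gene median 0.74). Fits without 1 library called 537 (without DKOITD 3) to 1955 genes (without WT 3), with 606 without DKOITD 1 and 762 without WT 2. In all of these fits 289 genes remained called higher (2.66% of those tested) and 198 lower (1.82%). Below, a gene said to rise or fall is one of these unless the libraries whose removal ended its call are named beside it. Where a list had 0 called members in a direction, the number at an unadjusted p under 0.05 in the limma fit of all libraries follows in brackets. Beside those numbers, 3287 of all 10868 tested genes were at that p, counting both directions. With the label number series in the fit, 4 genes remained called, Batf3, Cd209a, Clec10a and Trf, all higher. Of the 1380 called genes 1379 kept their direction. That agreement tests little, because these genes were chosen for their difference in the same libraries. Where the groups do not overlap, DKOITD 4 alone already lies on the same side of WT.

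**Figure D1:**
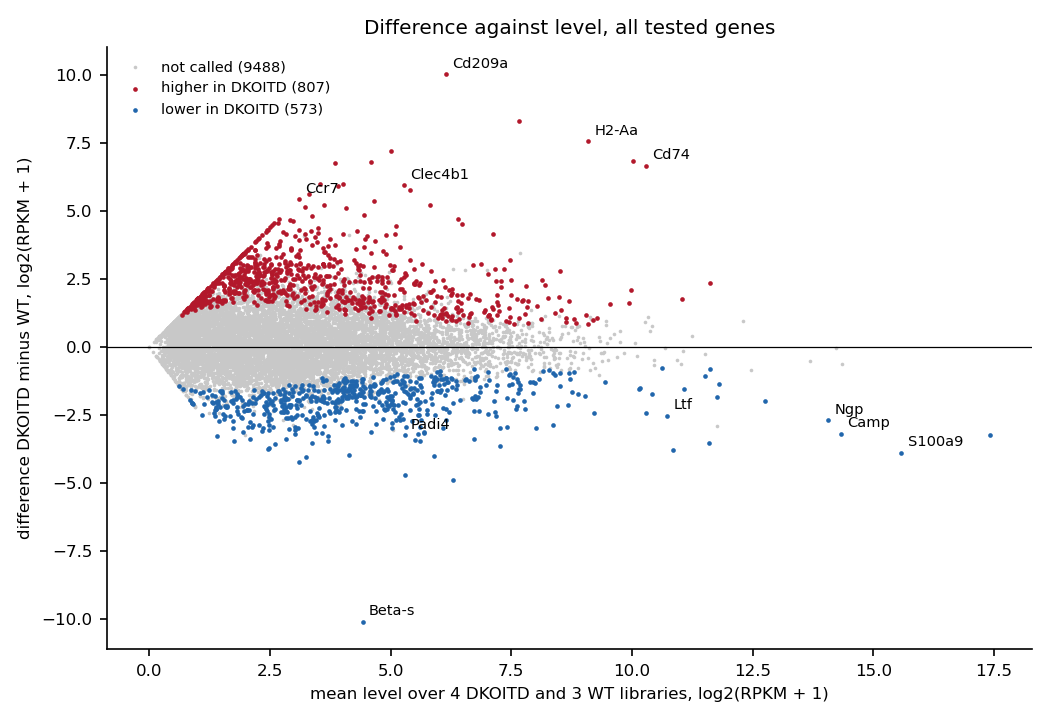
Each point is 1 of 10868 genes, placed by its mean level over the 4 DKOITD and 3 WT libraries (x axis) and its difference DKOITD minus WT (y axis), both on the log2(RPKM + 1) scale. The 807 genes called higher are red and the 573 called lower are blue. MHC class II genes and Cd209a lie at the top, and S100a9 and the granule genes Camp, Ngp and Ltf lie to the right below 0.

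The targeted genes and the sort marker were read first. Ezh2 was at 18.1, 1.54, 8.04 and 10.2 RPKM in DKOITD 1 to 4 and at 9.69, 2.05 and 12.4 in WT 1 to 3 (log2 difference 0.14 ± 0.69 (SE), adjusted p = 0.913). Runx1 was at 16.4, 14.9, 17.6 and 10.4 in DKOITD and 10.7, 13 and 3.53 in WT (log2 difference 0.78 ± 0.46 (SE), adjusted p = 0.269). The groups overlapped for both, and neither passed the test. A gene-level value covers more than the floxed exons and so checks neither deletion. Flt3 was at 34.5, 26.1, 39.2 and 8.80 in DKOITD, 0 and 10.4 in ITD and 0.0146, 0.145 and 0 in WT (log2 difference 4.56 ± 0.76 (SE), adjusted p = 0.00474). Every DKOITD library lay above all WT libraries, and the value does not tell the altered from the normal allele. Itgam, which encodes the sorted surface protein, was at 11, 33.3, 24.8 and 39.0 in DKOITD and 100.5, 143 and 90.3 in WT, and fell by 2.11 on the log2 scale (adjusted p = 0.00813).

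Among the gene lists, MHC class II had the highest share of rises. The list of class II chains, their loading factors and their regulators has 18 genes, and all were tested. Of these, 13 rose (72.2%, beside 7.43% of all genes) and 0 fell [0], with a median log2 difference of 3.64. The 13 genes remained called in each fit without 1 library. With the label number series in the fit 0 were called, with 13 at an unadjusted p under 0.05 in limma and a median of 4.23. Without both DKOITD 1 and DKOITD 3 the numbers were 0 and 13, with a median of 3.33. Over all 10868 genes 1065 and 1677 were at that p in these fits, in either direction. Their promoters are shown for H2-Aa, the alpha chain of I-A, and H2-Eb1, the beta chain of I-E, because letter patterns known from class II promoters can be read there. The RefSeq sequence (GRCm38.p6) is that of the 250 bases before the gene's start, 5′ to 3′ on the gene's strand. Capitals mark a CCAAT box (CCAAT, either strand) or an X box core, which reads AG, any base, AAC, any 2 bases, ATG (either strand). H2-Aa lies at chr17:34287824-34288073, minus strand, and H2-Eb1 at chr17:34305617-34305866, plus strand.
H2-Aa: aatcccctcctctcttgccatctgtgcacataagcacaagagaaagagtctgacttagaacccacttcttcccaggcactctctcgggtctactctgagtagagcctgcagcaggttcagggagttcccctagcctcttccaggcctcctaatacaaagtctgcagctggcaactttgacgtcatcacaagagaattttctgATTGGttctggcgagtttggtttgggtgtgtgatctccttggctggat
H2-Eb1: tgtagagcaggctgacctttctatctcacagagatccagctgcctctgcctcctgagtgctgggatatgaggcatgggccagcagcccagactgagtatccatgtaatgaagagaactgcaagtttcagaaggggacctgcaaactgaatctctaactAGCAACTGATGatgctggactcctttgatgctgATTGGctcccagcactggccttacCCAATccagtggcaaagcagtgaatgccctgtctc
Windows of 300 bases (250 before and 50 after the start) were found for 13 genes of the list. A CCAAT box was in 11 of these, against 41.1% of 27025 genes with a window, and the X box core in 4 (H2-Eb1, H2-Eb2, H2-Ob and H2-DMb1), against 1.04%. A longer X box pattern with other fixed letters was in 1 of the 13 and in 0.270% of all. A match describes letters and is not a measured site.

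By mean RPKM over the DKOITD libraries, the class II chains stood beside the most abundant transcripts of those cells. H2-Aa was at 7069, 2042, 6770.1 and 7348 RPKM in DKOITD 1 to 4 and at 290.5, 5.54 and 9.85 in WT 1 to 3 (log2 difference 7.56 ± 1.03 (SE), adjusted p = 0.00205). H2-Ab1, the beta chain that pairs with it, was at 12249.9, 2568, 10697 and 11315 and 343, 70.6 and 12.7 (log2 difference 6.82 ± 0.89 (SE), adjusted p = 0.00163). H2-Eb1 was at 3176, 843, 3370.4 and 3529 and 212, 0 and 1.09 (log2 difference 8.28 ± 1.39 (SE), adjusted p = 0.00481). In all of them DKOITD 2 was the lowest DKOITD library and WT 1 the highest WT library, and the groups did not overlap. Cd74, the invariant chain that holds the groove until a peptide is loaded, was at 12463, 3404, 12963 and 12122 in DKOITD and 351, 93.3 and 20.6 in WT, a ratio of means of 66.1 (log2 difference 6.66 ± 0.77 (SE), adjusted p = 0.000838). In the ITD libraries Cd74 was at 1782 and 4183, above every WT library, and ITD 2 was above DKOITD 2.

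The genes that load class II molecules moved with the chains. H2-DMa and H2-DMb1, the subunits of the DM exchange factor, rose by 4.16 and 4.71 (log2; adjusted p = 0.000583 and 0.00164). H2-Oa and H2-Ob, which hold DM back, rose by 5.22 and 4.47, and H2-Ob was listed at 0 in all WT libraries. Ciita, the coactivator on which class II transcription depends, was at 14.8, 3.51, 11.1 and 20.2 RPKM in DKOITD and 1.31, 0 and 0.0303 in WT (log2 difference 3.12 ± 0.59 (SE), adjusted p = 0.00793). The endosomal enzymes of the list, Ctss, Lgmn and the reductase Ifi30, rose by 2.07, 2.96 and 2.77. Rfx5, which binds the X box, was at 0 to 2.39 in DKOITD and 0 to 1.98 in WT and did not pass (adjusted p = 0.418). The list took 7.96, 1.85, 8.65 and 5.35% of summed RPKM in DKOITD 1 to 4 and 0.152, 0.0419 and 0.0408% in WT 1 to 3. With S100a8 and S100a9 left out of the sum, these shares were 8.79, 2.55, 9.22 and 7.60% and 0.371, 0.111 and 0.0885%. MHC class I and peptide processing, by contrast, had 3 of 17 tested members higher (17.6%, beside 7.43% of all genes) and 0 lower [0] (median 0.76). Of its members 5 were higher without DKOITD 2, 0 without DKOITD 3 and 1 without any of the others except WT 3. Its class I chain H2-K1 was at 449 to 1042 in DKOITD and 292 to 468 in WT (log2 difference 1.09 ± 0.34 (SE), adjusted p = 0.0547).

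**Figure D2:**
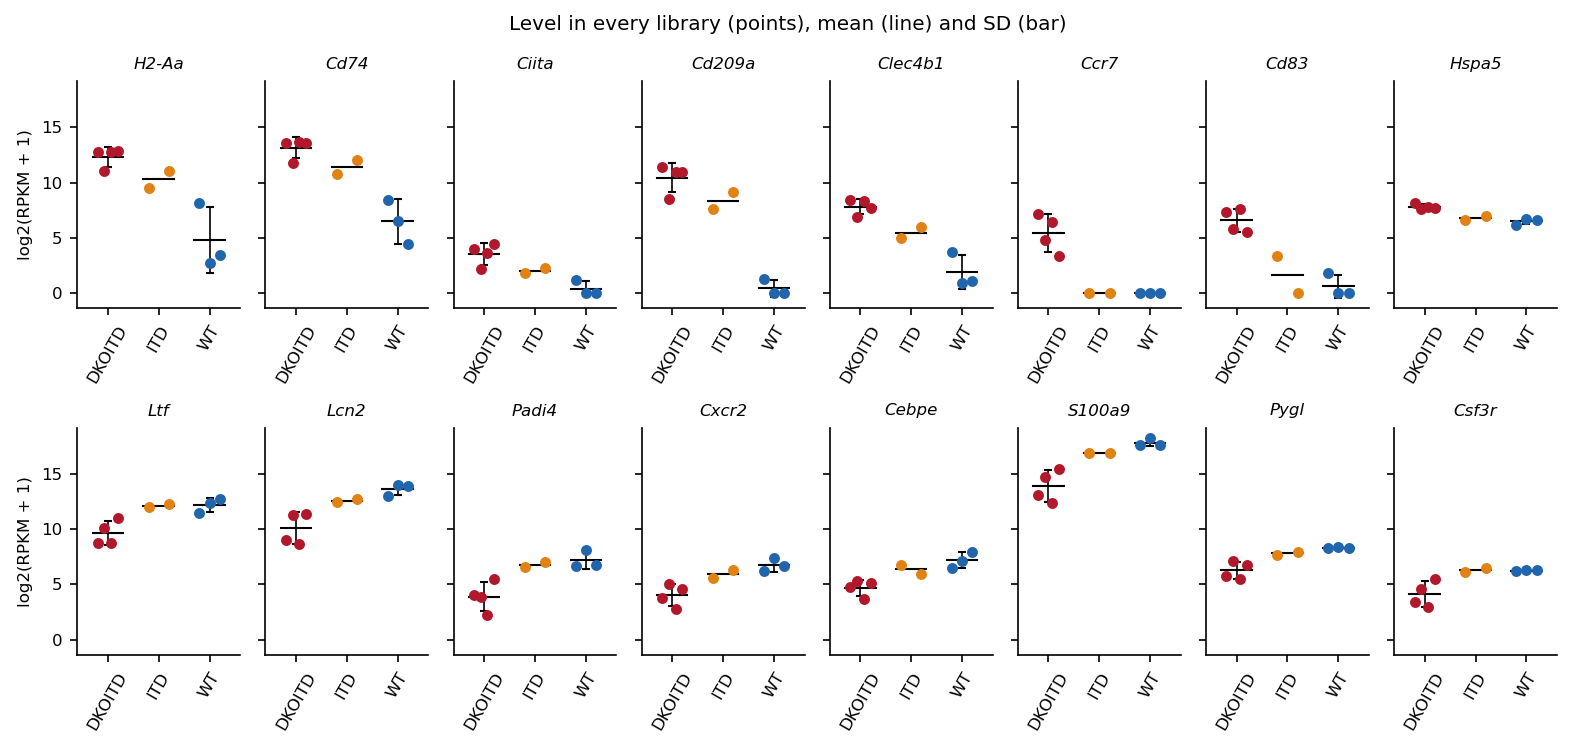
Level on the log2(RPKM + 1) scale (y axis) of 16 genes in every library, with the group mean as a line and the SD as a bar (no bar for the 2 ITD libraries). The DKOITD and WT points do not overlap in any of the 16 panels, with DKOITD above WT in the upper row and below it in the lower row. All 16 are called genes, most of which do not overlap between the groups.

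C-type lectins, surface receptors for sugars by which myeloid cells take up antigen, moved in both directions. Of 29 list members 26 were tested, 9 were higher and 3 lower (median 0.99), and 6 and 1 of them remained called in every fit without 1 library. Cd209a, a lectin of monocyte-derived and type 2 conventional dendritic cells (cDC2), was at 2628, 356, 1965 and 1977 RPKM in DKOITD and 1.40, 0 and 0 in WT (log2 difference 10.01 ± 0.64 (SE), adjusted p = 2.35e-05). This was the largest difference of the 10868 genes in the upward direction, and the ITD libraries held 189 and 569. Clec10a was at 186, 109, 276 and 186 and 2.35, 0.236 and 0.0575 (log2 difference 6.79 ± 0.47 (SE), adjusted p = 2.58e-05), and Clec4b1 at 332, 116, 323 and 205 and 11.8, 0.902 and 1.1 (log2 difference 5.93 ± 0.63 (SE), adjusted p = 0.00052). All 4 DKOITD libraries lay above all WT libraries in each of the lectins just given. Mrc1, the mannose receptor of macrophages and dendritic cells, rose by 4.15 with its lowest value in DKOITD 1, and Clec9a, the dead-cell receptor of type 1 conventional dendritic cells (cDC1), rose by 2.61. Clec4d, a lectin of neutrophils and monocytes, fell from 46.7 to 152 in WT to 7.75 to 30.7 in DKOITD (log2 difference -2.70 ± 0.50 (SE), adjusted p = 0.00738). The lectins Clec5a and Clec4a2 were also lower (-1.92 and -1.42), but without DKOITD 1 or DKOITD 3 their calls were lost (adjusted p up to 0.0509 and 0.0560).

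Some genes of dendritic cell maturation were higher, a few of them listed at 0 in every WT library. Of 24 members of the costimulation and maturation list 19 were tested. Of these 7 were higher (36.8%) and 1 lower (5.26%), beside 7.43% and 5.27% of all genes (median 1.70). In every fit without 1 library 5 of the 7 remained called. The lower member, Marcksl1, of actin-bound signalling, was at 8.37 to 21.3 RPKM in DKOITD and 25.3 to 109.7 in WT, and its call was lost without any library except WT 1 (adjusted p up to 0.137). Ccr7, the chemokine receptor that leads mature dendritic cells to lymph nodes, was at 140.1, 26.7, 87.0 and 9.19 RPKM in DKOITD and was listed at 0 in all WT and ITD libraries (log2 difference 5.44 ± 0.76 (SE), adjusted p = 0.00232). Cd83, a surface protein of mature dendritic cells, was at 158, 55.1, 196 and 46.4 and 2.52, 0 and 0 (log2 difference 5.97 ± 0.80 (SE), adjusted p = 0.00187). For both genes DKOITD 1 and DKOITD 3 were the highest libraries, and DKOITD 4 was the lowest. The ligand Tnfsf9 and the chemokine Ccl22 rose by 3.71 and 3.60, and Ccl22 was listed at 0 in all WT libraries. The classical costimulator Cd86 did not pass and was at 16.8, 24.5, 17.9 and 3.81 in DKOITD and 7.13, 21.3 and 2.07 in WT, with overlap. Cd40 was at 2.76 to 38.9 in DKOITD and 0 to 3.65 in WT, and its call (adjusted p = 0.0277) was lost without DKOITD 1, 3 or 4 or WT 2 or 3 (up to 0.0899).

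Some transcription factors of dendritic cells rose beside these surface genes. Of 24 tested members of the lineage factor list 6 were higher (25%) and 1 lower (4.17%), beside 7.43% and 5.27% of all genes. The median was 0.73, with 3 higher without DKOITD 1 and 2 without DKOITD 3. Batf3, required for cDC1 cells, was at 94.4, 28.4, 55.3 and 47.6 RPKM in DKOITD, 9.28 and 18.2 in ITD and 0, 0.248 and 0 in WT (log2 difference 5.61 ± 0.46 (SE), adjusted p = 9.65e-05). Id3, an inhibitor of E proteins, was at 3.92 to 12.4 in DKOITD and listed at 0 in WT (log2 difference 2.88 ± 0.64 (SE), adjusted p = 0.0154). Irf4, a factor of cDC2 cells, was at 14.5, 3.04, 10.6 and 7.95 and 1.33, 0 and 0, and Tcf4, the E protein of plasmacytoid cells, at 13.2, 9.19, 11.7 and 7.10 and 3.07, 1.13 and 0.955. The Irf4 call was lost without DKOITD 1, DKOITD 3 or WT 2 (adjusted p up to 0.0645), and that of Tcf4 without DKOITD 1 or DKOITD 3 (up to 0.0547). Zbtb46, which marks conventional dendritic cells, was at 8.38, 0.0820, 9.26 and 2.44 in DKOITD and listed at 0 in the other groups, and did not pass (adjusted p = 0.0608). Ikzf1 was lower by 1.09, a call lost without DKOITD 1, 3 or 4 or WT 1 or 2 (up to 0.115).

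In each list of dendritic subtype markers some members rose, with 0 called lower (at an unadjusted p under 0.05, 0 for type 1, 1 for type 2 and 0 for plasmacytoid cells). Of 11 tested cDC1 markers 6 were higher (median 1.44), of 12 cDC2 markers 6 (median 2.34) and of 10 plasmacytoid markers 4 (median 1.88). These shares were 54.5, 50 and 40%, beside 7.43% of all genes. In every fit without 1 library 5, 3 and 2 of them remained called. The cDC2 count was 3 without DKOITD 1, DKOITD 3 or WT 2, and the plasmacytoid count was 7 without DKOITD 2 and 2 without DKOITD 3. Ifi205, an interferon-inducible cDC1 gene, was at 172, 29.7, 168 and 61.9 RPKM in DKOITD and 0.0331, 0 and 1.87 in WT (log2 difference 5.92 ± 0.61 (SE), adjusted p = 0.00052). Naaa, a lysosomal hydrolase of cDC1 cells, was at 128, 78.3, 93.9 and 90.9 and 45.8, 7.66 and 16.6 (log2 difference 2.33 ± 0.47 (SE), adjusted p = 0.0101). Among plasmacytoid genes Bst2, an interferon-induced tether of viruses, was at 239.7, 45.7, 137 and 89.2 and 16.5, 3.58 and 19.9 (log2 difference 3.20 ± 0.60 (SE), adjusted p = 0.00741). DKOITD 2 was the lowest of the DKOITD libraries for Ifi205, Naaa and Bst2, yet above all WT libraries. Siglech, which defines plasmacytoid cells, was at 5.81, 0, 1.77 and 0.974 in DKOITD and listed at 0 in WT, and did not pass (adjusted p = 0.139). Itgax, the integrin CD11c of dendritic cells, rose by 3.08, from 0 to 1.79 in WT to 8.43 to 12.8 in DKOITD.

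Lysosomal proteases and hydrolases, which cut the antigens that class II presents, were higher in part. Of 24 tested members of the list 11 were higher (45.8%) and 1 lower (4.17%), beside 7.43% and 5.27% of all genes (median 1.16). Without DKOITD 1 or without DKOITD 3, 7 were higher. Cst3, the cathepsin inhibitor cystatin C, was at 10069.8, 4769, 7301 and 4369 RPKM in DKOITD and 2013, 1142 and 832 in WT (log2 difference 2.33 ± 0.37 (SE), adjusted p = 0.0038). Ctsz, a carboxypeptidase, was at 529, 335, 544 and 376 and 111, 66.6 and 105 (log2 difference 2.23 ± 0.29 (SE), adjusted p = 0.00144). The protective protein Ctsa and prosaposin, Psap, rose by 1.86 and 1.64. Neither Cst3 nor Ctsz overlapped between the groups. Ctsd, the aspartic protease, was at 45.3, 127, 43.0 and 78.1 in DKOITD and 133, 166 and 192 in WT, the opposite direction, but its call (adjusted p = 0.0484) was lost without any of the libraries other than DKOITD 2 (up to 0.134).

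Several folding factors of the endoplasmic reticulum were higher in DKOITD. Of 28 tested members 10 were higher (35.7%, beside 7.43% of all genes) and 0 lower [3] (median 0.93). Without DKOITD 1, DKOITD 3 and WT 2, 6, 5 and 6 were higher. The disulfide isomerase Pdia4 was at 31.6, 32.7, 32.2 and 21.0 RPKM in DKOITD and 2.65, 0.427 and 8.35 in WT (log2 difference 3.04 ± 0.59 (SE), adjusted p = 0.00849). Its relative Pdia6 was at 165, 95.9, 143 and 138 and 21.2, 22.3 and 49.6 (log2 difference 2.17 ± 0.35 (SE), adjusted p = 0.00423). In both, every DKOITD library was above every WT library, and DKOITD 4 was the lowest of its group for Pdia4. Hspa5, the chaperone BiP, was at 288, 191, 226 and 203 and 72.8, 105 and 94.0 (log2 difference 1.31 ± 0.27 (SE), adjusted p = 0.0105). Herpud1, of the degradation complex, was at 172, 129, 146 and 109 and 27.8, 29.4 and 38.2 (log2 difference 2.09 ± 0.28 (SE), adjusted p = 0.00187). Again all DKOITD libraries lay above all WT libraries. The promoters of Hspa5 and Pdia6 are printed because they carry the endoplasmic reticulum stress element, which reads CCAAT, any 9 bases, CCACG (either strand, capitals). It was in 7 of the 24 list members with a window (Hspa5, Hsp90b1, Calr, Canx, Pdia6, Dnajc3 and Creld2) and in 0.137% of all genes with one. Each match also contains a CCAAT box, which was in 20 of the 24. The sequences are the 250 bases before the start, Hspa5 at chr2:34771840-34772089, plus strand, and Pdia6 at chr12:17266339-17266588, plus strand (RefSeq, GRCm38.p6).
Hspa5: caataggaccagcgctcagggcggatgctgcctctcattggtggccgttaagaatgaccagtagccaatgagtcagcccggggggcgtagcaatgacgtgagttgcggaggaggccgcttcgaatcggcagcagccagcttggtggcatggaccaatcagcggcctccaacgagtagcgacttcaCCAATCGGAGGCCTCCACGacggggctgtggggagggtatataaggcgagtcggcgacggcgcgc
Pdia6: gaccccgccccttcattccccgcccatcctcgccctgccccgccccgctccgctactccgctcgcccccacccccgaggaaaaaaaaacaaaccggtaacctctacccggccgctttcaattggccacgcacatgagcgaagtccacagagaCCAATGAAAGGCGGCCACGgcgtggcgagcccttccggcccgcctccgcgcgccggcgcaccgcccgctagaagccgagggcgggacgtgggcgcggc
Of the 7 genes with the element, Hspa5, Pdia6 and Canx were called higher and Hsp90b1, Calr, Dnajc3 and Creld2 were not (adjusted p = 0.226, 0.197, 0.168 and 0.202), and the Canx call was lost without DKOITD 3 (adjusted p = 0.0574).

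Monocyte and macrophage genes were higher in part. Of 34 tested members 9 were higher (26.5%, beside 7.43% of all genes) and 0 lower [4] (median 0.47, against 0.17 for all genes), with 4 higher without DKOITD 3 or DKOITD 4 and 5 without WT 2. Ms4a6b, a membrane protein of monocytes and other white cells, was at 455, 154, 344 and 283 RPKM in DKOITD and 63.9, 16 and 37.4 in WT (log2 difference 3.05 ± 0.46 (SE), adjusted p = 0.00333). Apoe, the lipid carrier of macrophages, was at 364, 1165, 617 and 430.3 and 122, 75.2 and 129 (log2 difference 2.44 ± 0.40 (SE), adjusted p = 0.00455). Both genes separated the groups, with Apoe highest in DKOITD 2. Of the 12 tested markers summed below, 3 were called higher. Ms4a6c rose, at 408, 291, 345 and 407 RPKM in DKOITD and 147, 116 and 73.3 in WT (limma, adjusted p = 0.00456). Ccr2 and Fcgr1 were also higher (adjusted p = 0.0242 and 0.0406). Both calls were lost without DKOITD 1, 3 or 4 or WT 2 (up to 0.0726 and 0.120). The Ccr2 call was also lost without WT 3, and the Fcgr1 call without WT 1. The monocyte genes Csf1r and Ly6c2 were not called: Csf1r was at 41.6, 59.3, 63.9 and 57.1 in DKOITD and 64.9, 52.0 and 19.3 in WT (adjusted p = 0.497). Ly6c2 was at 1763, 1725, 1176 and 2333 and 2692, 2367 and 2998 (adjusted p = 0.128). The markers of tissue macrophages C1qa, C1qb and C1qc, opsonins of the complement system, were at no more than 22.2 in any DKOITD library and did not pass. Summed monocyte and macrophage markers were 2153 to 3443 RPKM in DKOITD and 2712 to 3380 in WT, with overlap. Ly6c2 made up most of the sum in each of these libraries.

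Receptors for antibody and microbial products changed in part. Of 9 tested Fc receptor genes 4 were higher (44.4%) and 1 lower (11.1%), beside 7.43% and 5.27% of all genes. The lower gene was Fcgr4 (-1.20), and its call was lost without any library except WT 3 (adjusted p up to 0.109). Fcgrt, the neonatal receptor that recycles antibody, was at 119.8, 61.5, 126 and 43.9 RPKM in DKOITD and 11.4, 2.59 and 2.88 in WT (log2 difference 3.86 ± 0.52 (SE), adjusted p = 0.00187). Fcgr2b, the inhibitory receptor, was at 309, 259.6, 371 and 276 and 99.3, 31.4 and 85.6 (log2 difference 2.20 ± 0.37 (SE), adjusted p = 0.0049), and DKOITD lay above WT for both. Of 25 tested Toll-like receptors and adaptors 3 were higher (12%, beside 7.43% of all genes) and 0 lower [0]. The higher genes included Ly86, the partner of Cd180, with 766, 405, 658 and 552 and 200.5, 130.5 and 64.8 (log2 difference 2.27 ± 0.37 (SE), adjusted p = 0.0043). Tlr11, a receptor of cDC1 cells, was at 1.33 to 4.29 in DKOITD and listed at 0 in WT (log2 difference 1.96 ± 0.42 (SE), adjusted p = 0.0131). Among 13 chemokine receptors 3 were higher and 3 lower (23.1% each, beside 7.43% higher and 5.27% lower of all genes), with 1 lower without DKOITD 1, DKOITD 3 or WT 2. Cxcr2 fell with the neutrophil receptors.

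Neutrophil secondary and tertiary granule genes had the highest share of falls among the gene lists. Of 40 members of the secondary and tertiary granule list 35 were tested. Of these 24 were lower (68.6%, beside 5.27% of all genes) and 0 higher [0] (median -2.11). The count lay between 16 and 29 in the fits without 1 library, and 16 genes remained called in all of them. With the label number series in the fit 0 were called (limma, 13 at an unadjusted p under 0.05, median -1.21), and without both DKOITD 1 and DKOITD 3 also 0 (22 at an unadjusted p under 0.05, median -1.40). Of all 10868 genes 1065 and 1677 were at that p in these fits, in either direction. Promoters of Lcn2 and Ltf are shown because both hold a C/EBP half-site pair, read as TTGCNNAA on either strand (capitals). It was in 10 of 33 list members with a window and in 12.2% of all genes with one. In 2 lists that had calls only in the higher direction, it was in 1 of 13 class II genes and 4 of 13 plasmacytoid markers. The stricter palindrome ATTGC followed by GCAAT was in 0 of the 33 and in 2 of all 27025 genes with a window. So rare a pattern cannot tell the list from other genes. The sequences are the 250 bases before the start, Lcn2 at chr2:32387740-32387989, minus strand, and Ltf at chr9:111019042-111019291, plus strand (RefSeq, GRCm38.p6).
Lcn2: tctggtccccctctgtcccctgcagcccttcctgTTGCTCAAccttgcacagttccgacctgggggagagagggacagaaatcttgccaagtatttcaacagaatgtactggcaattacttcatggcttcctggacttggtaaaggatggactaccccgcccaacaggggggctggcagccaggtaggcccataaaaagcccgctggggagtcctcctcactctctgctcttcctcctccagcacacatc
Ltf: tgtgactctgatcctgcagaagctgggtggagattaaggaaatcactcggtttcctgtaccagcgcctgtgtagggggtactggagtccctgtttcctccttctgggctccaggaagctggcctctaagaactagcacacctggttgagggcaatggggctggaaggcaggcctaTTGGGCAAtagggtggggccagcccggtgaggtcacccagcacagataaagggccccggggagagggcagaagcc
A PU.1 pattern (GAGGAAGT, either strand) was in 5 of the 33 and in 3 of 19 members of the primary granule list (both Mpo and Elane hold it), against 3.69% of all genes with a window.

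The lower genes included the stored iron-binding and antimicrobial proteins. Lcn2, the siderophore-binding lipocalin, was at 507, 2458, 404 and 2704 RPKM in DKOITD and 8084, 16639 and 14830.4 in WT (log2 difference -3.54 ± 0.62 (SE), adjusted p = 0.00558). Ltf, the iron-binding lactoferrin, was at 433, 1117, 418 and 2029 and 2873, 5337 and 6576 (log2 difference -2.54 ± 0.51 (SE), adjusted p = 0.0101), and Camp, the cathelicidin, at 4062, 11964, 4203 and 19398 and 75712, 82598 and 61588 (log2 difference -3.20 ± 0.50 (SE), adjusted p = 0.00395). In each of them DKOITD 2 and DKOITD 4 were above DKOITD 1 and DKOITD 3, and all 4 were below every WT library. Mmp9, the gelatinase of tertiary granules, was at 6.60, 20.3, 5.06 and 116 and 550.5, 866 and 346 (log2 difference -4.90 ± 0.80 (SE), adjusted p = 0.00443). Padi4, the arginine deiminase of neutrophil extracellular traps, was at 15.5, 13.2, 3.75 and 42.9 and 97.4, 272 and 107 (log2 difference -3.26 ± 0.62 (SE), adjusted p = 0.00771). In both genes DKOITD 4 was the highest of its group and no DKOITD library reached a WT library. In ITD the values of Lcn2 were 5654 and 6505 and those of Mmp9 355 and 448. Ngp, a cathelicidin-like granule protein, was lower by 2.70, and its call was lost without DKOITD 1 (adjusted p = 0.0508). The list took 2.96, 8.33, 2.97 and 8.35% of summed RPKM in DKOITD 1 to 4 and 11.1, 11.4 and 13.5% in WT. With S100a8 and S100a9 left out of the sum, these shares were 3.27, 11.5, 3.17 and 11.9% and 27.1, 30.3 and 29.2%.

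Primary granule and promyelocyte genes were divided. Of 21 tested members 9 were lower (42.9%, beside 5.27% of all genes) and 0 higher [0] (median -1.41). Without DKOITD 1, DKOITD 3 and WT 3, 5, 4 and 5 were lower. Hk3, a hexokinase of myeloid cells, was at 8.37, 9.87, 6.36 and 19.3 RPKM in DKOITD and 61.8, 83.6 and 92.9 in WT (log2 difference -2.84 ± 0.37 (SE), adjusted p = 0.00173), and Cd63, a granule membrane tetraspanin, at 43.1, 45.5, 48.5 and 72.0 and 190.0, 270.4 and 387 (log2 difference -2.38 ± 0.30 (SE), adjusted p = 0.00144). Hdc, which makes histamine, fell by 2.74. None of the 3 overlapped between the groups. The proteases stored in those granules varied between libraries of each group and did not pass: Elane was at 945, 921, 453 and 196 in DKOITD and 442, 94.7 and 3203 in WT (adjusted p = 0.985). Mpo, the myeloperoxidase, was at 455, 538, 1131 and 26.2 and 84.7, 0 and 872 (adjusted p = 0.354).

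Several receptors by which neutrophils sense chemoattractants fell. Of 26 tested members of the neutrophil receptor list 11 were lower (42.3%, beside 5.27% of all genes) and 0 higher [0] (median -1.45). Without DKOITD 1 or DKOITD 3, 6 were lower, and without WT 1 or WT 2, 7 were. Cxcr2, the receptor for neutrophil chemokines, was at 12.4, 32.4, 5.68 and 22.7 RPKM in DKOITD and 70.5, 169 and 99.2 in WT (log2 difference -2.71 ± 0.52 (SE), adjusted p = 0.00796). Fpr2, a formyl peptide receptor, was at 17.8, 81.9, 18.2 and 74.7 and 445, 693 and 216 (log2 difference -3.39 ± 0.59 (SE), adjusted p = 0.0056), and the C5a receptor C5ar1 fell by 2.27. Groups did not overlap in these, and DKOITD 1 and DKOITD 3 were the lowest libraries. Csf3r, the receptor of the granulocyte growth factor, was at 9.83, 23.5, 6.83 and 44.2 and 71.4, 75.4 and 75.5, and its call was lost without DKOITD 1, DKOITD 3, WT 1 or WT 2 (adjusted p = 0.0226, up to 0.0660). Retnlg, a late neutrophil gene, was at 1481, 4858, 163 and 3924 and 14809, 13998 and 6369 and did not pass (adjusted p = 0.0545). Of 31 tested growth factor and cytokine receptors 6 were higher (19.4%) and 4 lower (12.9%), beside 7.43% and 5.27% of all genes. At most 1 was lower without DKOITD 1, DKOITD 3, WT 1 or WT 2. Il7r, of lymphoid progenitors, was at 2.02 to 16.3 in DKOITD and listed at 0 elsewhere (log2 difference 2.73 ± 0.56 (SE), adjusted p = 0.0108). Il13ra1 and Ifngr1, of the IL-13 and interferon gamma receptors, rose by 2.57 and 1.67.

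The phagocyte oxidase, which makes the oxidative burst, was lower in several subunits. Of 13 tested members of the list 7 were lower (53.8%) and 1 higher (7.69%), beside 5.27% and 7.43% of all genes (median -1.20). Without DKOITD 1, DKOITD 3 or WT 2, 4 were lower. The higher one, Cat, which encodes catalase, differed by 1.31, a call lost without DKOITD 1, DKOITD 3 or WT 1 (adjusted p up to 0.0721). Ncf1, the organizer subunit p47phox, was at 42.5, 71.1, 41.1 and 161 RPKM in DKOITD and 353, 506 and 359 in WT (log2 difference -2.56 ± 0.42 (SE), adjusted p = 0.00445). Hvcn1, the proton channel that balances the oxidase, was at 2.17, 1.65, 1.99 and 12.1 and 20.5, 36.8 and 68.1 (log2 difference -3.17 ± 0.60 (SE), adjusted p = 0.00771). Both were highest in DKOITD 4 within their group and below WT in all of its libraries. Rac2 and Prdx5, a small GTPase and a peroxidase, fell by 1.44 and 1.75. Cybb, the catalytic subunit, was at 194, 306, 273 and 452 and 619.9, 749 and 659.9, and its call (adjusted p = 0.0218) was lost without DKOITD 1, DKOITD 3 or WT 2 (up to 0.0651).

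Granulocyte and myeloid transcription factors moved in both directions. Of 31 tested members of the list 8 were lower (25.8%) and 3 higher (9.68%), beside 5.27% and 7.43% of all genes. Without DKOITD 1, DKOITD 3 or WT 2, 1 was higher, and the median was -0.23 in the fit of all libraries but 0.46 per recovered read. Cebpe, needed for secondary granules, was at 25.4, 38.4, 11.6 and 32.8 RPKM in DKOITD and 87.2, 137 and 242 in WT (log2 difference -2.48 ± 0.45 (SE), adjusted p = 0.0068). Mxd1, a repressor of the Myc network, was at 7.26, 18.8, 6.86 and 30.6 and 82.2, 139 and 84.0 (log2 difference -2.81 ± 0.48 (SE), adjusted p = 0.00492), and Myc itself at 9.64, 13.6, 17 and 8.62 and 0.0668, 0 and 2.66 (log2 difference 3.02 ± 0.61 (SE), adjusted p = 0.0101). The groups separated in opposite directions for Mxd1 and Myc. Cebpd, Klf5 and Nfe2 fell by 2.18, 3.0 and 1.83. Cebpa, which acts earlier in the lineage, was at 3.71, 22.2, 7.46 and 7.03 in DKOITD and 9.57, 1.67 and 2.42 in WT and did not pass (adjusted p = 0.302).

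The S100 genes took a large part of all RPKM. S100a8 and S100a9, which form the calcium-binding dimer calprotectin of neutrophils, had the highest mean RPKM of all genes in WT. S100a9 was at 8668, 27338, 5305 and 44588 RPKM in DKOITD and 199257, 300483 and 203262 in WT (log2 difference -3.90 ± 0.62 (SE), adjusted p = 0.0041), and S100a8 at 38954, 138877, 21751 and 170576 and 670182, 725585 and 518857 (log2 difference -3.24 ± 0.64 (SE), adjusted p = 0.00933). DKOITD 1 and DKOITD 3 held the lowest values, and DKOITD 4 the highest of its group, still below WT. Of 16 tested S100 and annexin genes 6 were lower (37.5%) and 3 higher (18.8%), beside 5.27% and 7.43% of all genes. The median was -0.36, but 0.40 per recovered read. The list took 10.4, 28.6, 7.06 and 30.6% of summed RPKM in DKOITD 1 to 4 and 59.6, 63.1 and 54.7% in WT 1 to 3. Anxa3 fell by 1.64, whereas Anxa5 and Anxa6, membrane-binding annexins, rose by 1.75 and 2.42. Anxa5 was at 244 to 392 in DKOITD and 77.4 to 132 in WT.

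**Figure D3:**
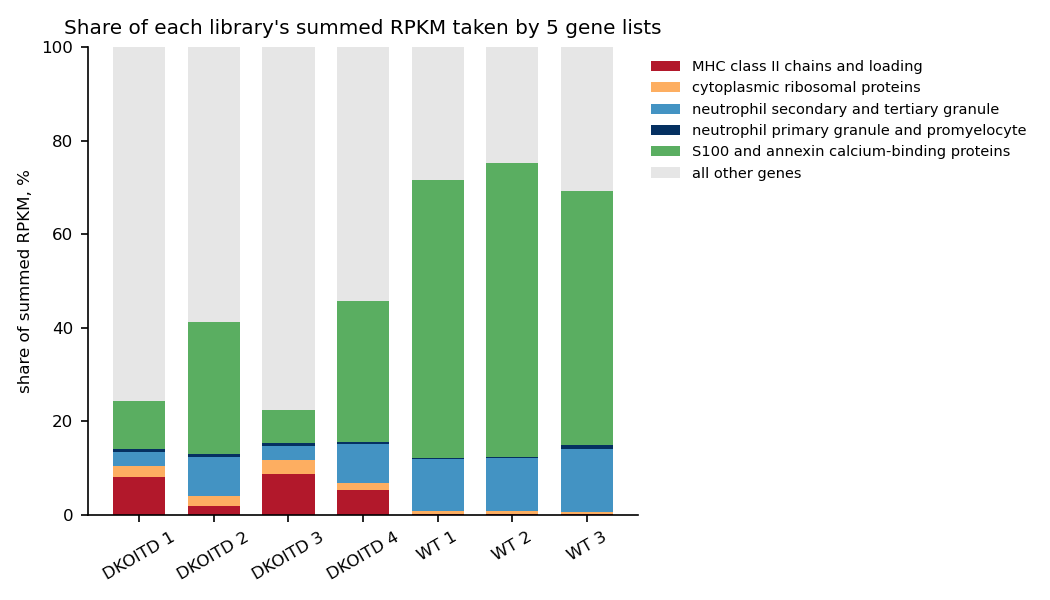
Share of each library's summed RPKM (y axis, %) taken by 5 gene lists in the 4 DKOITD and 3 WT libraries, with all other genes in grey and Anxa1, a member of 2 of the lists, drawn once. The S100 and annexin genes take more than all other genes together in each WT library and at most about 31% in a DKOITD library, and the class II genes are visible only in DKOITD.

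Part of the enzymes of sugar use were lower. Of 35 tested genes of glycolysis, the pentose phosphate pathway and glycogen 11 were lower (31.4%) and 1 higher (2.86%), beside 5.27% and 7.43% of all genes. The median was -0.92, and -0.17 per recovered read, where 7 were lower and 3 higher. Without DKOITD 1, DKOITD 3 or WT 2, 7 were lower, and without WT 3, 4 were higher. Pgd, of the pentose phosphate pathway, was at 42.2, 70.8, 36.7 and 84.5 RPKM in DKOITD and 205, 394 and 309 in WT (log2 difference -2.38 ± 0.35 (SE), adjusted p = 0.00284), and Tkt, of the same pathway, fell by 1.96. Pygl, the glycogen phosphorylase of neutrophils, was at 53.3, 133, 43.5 and 109 and 305, 329 and 304 (log2 difference -2.02 ± 0.37 (SE), adjusted p = 0.00681). The glucose transporter Slc2a3 and the lactate transporter Slc16a3 fell by 1.89 and 2.58. In all 5 genes every DKOITD library was below every WT library. Ldha, the last step of glycolysis, was at 175, 221, 188 and 176 and 184, 218 and 341, with overlap (adjusted p = 0.412). Aldoc, an aldolase mainly of brain, was listed at 0 in all WT libraries and rose (3.56 to 30.6 in DKOITD, adjusted p = 0.00611).

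Of the actin skeleton, 12 of 39 tested genes were lower (30.8%, beside 5.27% of all genes) and 0 higher [2] on the deposited scale (median -0.52). Without DKOITD 3, 6 were lower. The median turned to 0.24 per recovered read, where 4 were lower and 4 higher and all genes had a median of 0.74. Actn1, an actin crosslinker, was at 1.13, 2.12, 1.38 and 9.55 RPKM in DKOITD and 45.9, 72.9 and 20.6 in WT (log2 difference -3.55 ± 0.59 (SE), adjusted p = 0.00469), and Vcl, the adhesion protein vinculin, at 8.53, 11.7, 16.7 and 22.7 and 105, 69.9 and 36.8 (log2 difference -2.13 ± 0.42 (SE), adjusted p = 0.00902). Arap3, a regulator of small GTPases, fell by 3.76, and Ezr, which ties actin to the membrane, by 2.10. The groups did not overlap in these 4 genes. Actb itself was at 9755 to 15485 in DKOITD and 14009 to 18616 in WT and did not pass (adjusted p = 0.228).

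Among genes of the BCL2 family, Bcl2a1a rose and Bcl2l1 fell. Of 28 tested survival and death genes 6 were higher (21.4%) and 1 lower (3.57%), beside 7.43% and 5.27% of all genes (median 0.54). Bcl2a1a, of the antiapoptotic A1 genes, was at 106, 30.2, 90.1 and 73.4 RPKM in DKOITD and 0.0671, 0 and 0.217 in WT (log2 difference 5.98 ± 0.54 (SE), adjusted p = 0.000213). Its near-identical copy Bcl2a1d rose by 4.84, and reads may have been split between these copies, so both values are uncertain. Bcl2l1, which encodes the antiapoptotic BCL-XL, was at 1.47, 0.461, 2.07 and 3.57 and 16.2, 11.3 and 15 (log2 difference -2.49 ± 0.50 (SE), adjusted p = 0.00995). The groups did not overlap in any of the 3. Pmaip1, the proapoptotic NOXA, rose by 4.23, and Bcl2 was at 0.44 to 2.01 and 0.242 to 0.411 and did not pass (adjusted p = 0.318). STAT5 and feedback genes, which respond to active FLT3 with the duplication, had 3 of 26 tested members higher and 3 lower. Each share was 11.5%, beside 7.43% higher and 5.27% lower of all genes, and 5 were higher without DKOITD 4 or WT 3. Socs2, a feedback inhibitor of cytokine signalling, was at 17.1, 5.78, 11 and 4.95 in DKOITD and listed at 0 in WT and ITD (log2 difference 3.28 ± 0.49 (SE), adjusted p = 0.00326). Ccnd2, a D cyclin, was at 12.6, 7.39, 14.6 and 4.35 and 0.0185, 0.704 and 0.105 (log2 difference 2.99 ± 0.52 (SE), adjusted p = 0.00535), and Dusp6, the MAPK phosphatase, at 11.1, 7.14, 6.67 and 24.7 and 77.3, 45.9 and 36.6 (log2 difference -2.13 ± 0.45 (SE), adjusted p = 0.012). Pim1 and Cish, other targets of STAT5, did not pass (adjusted p = 0.294 and 0.176).

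**Figure D4:**
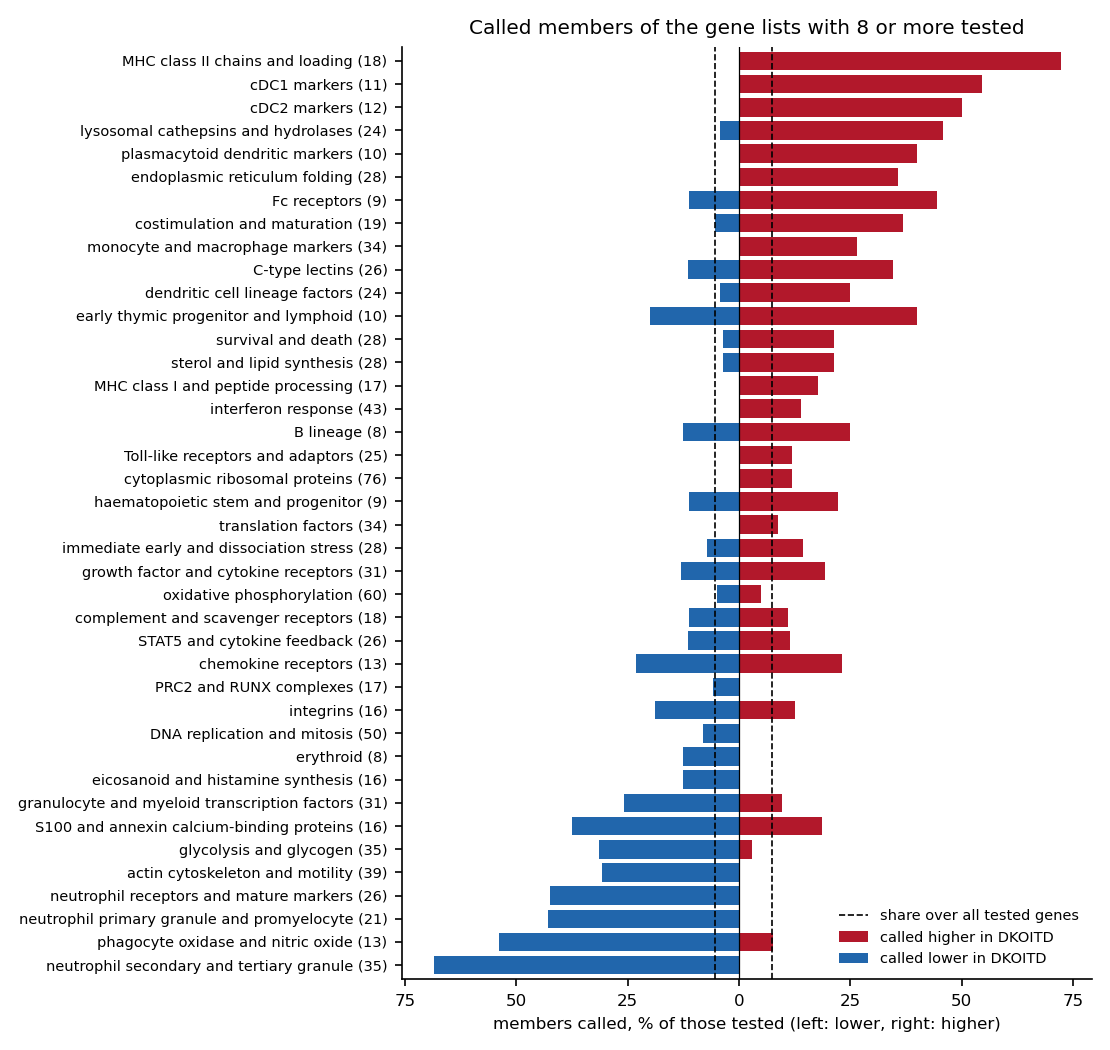
Share of the tested members of each gene list (y axis, number tested in parentheses) that were called higher (red, to the right) or lower (blue, to the left) in DKOITD against WT, in percent (x axis). Dashed lines give the shares over all 10868 tested genes, 7.43% higher and 5.27% lower. The class II list reaches 72.2% higher, and the secondary and tertiary granule list 68.6% lower.

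Interferon response genes divided the DKOITD libraries. Of 43 tested members 6 were higher (14.0%, beside 7.43% of all genes) and 0 lower [0] (median 1.24), with 21 higher without DKOITD 2, 3 without DKOITD 1 and 3 without DKOITD 3. Mean levels of the list were 5.92, 3.0, 5.68 and 5.71 on the log2(RPKM + 1) scale in DKOITD 1 to 4, 4.66 and 5.57 in ITD and 3.81, 3.36 and 4.02 in WT. DKOITD 2 lay below all WT libraries and the other DKOITD libraries above them. Ifi44 was at 108, 2.16, 45.8 and 27.0 RPKM in DKOITD and listed at 0 in WT (log2 difference 4.70 ± 0.93 (SE), adjusted p = 0.00916). Irgm1, a GTPase of cell-autonomous defence, was at 157, 27.9, 109 and 131 and 18.6, 19.0 and 14.5 (log2 difference 2.30 ± 0.50 (SE), adjusted p = 0.0138). Irf7, the factor that amplifies the response, was at 216, 8.68, 190.3 and 144 and 16.8, 26.2 and 35.6 and did not pass (adjusted p = 0.206). DKOITD 2 was the lowest library of its group in each of the 3. The interferon-stimulated response element, GAAA, any 2 bases, GAAA on either strand, was in 20 of 36 list members with a promoter window and in 3.99% of all genes with one.

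Lists of growth and metabolism had called members in shares that are read here against all tested genes, of which 7.43% were higher and 5.27% lower. Of 76 tested ribosomal protein genes 9 were higher (11.8%) and 0 lower [1] (median 0.43), with 0 without DKOITD 1 or DKOITD 3 and 2 without WT 2. Rpl4 was at 565 to 630.3 RPKM in DKOITD and 243 to 426 in WT. The groups were apart for this gene, and its call was lost without DKOITD 1, DKOITD 3, WT 1 or WT 2 (adjusted p up to 0.0755). Of 34 translation factors 3 were called higher (8.82%) and 0 lower [0], a higher count of 0 without DKOITD 1, DKOITD 3 or WT 2, of 1 without DKOITD 2 and of 7 without WT 3. Of 60 oxidative phosphorylation genes 3 were called in each direction (median 0.02; in the fits without 1 library 0 to 8 higher, the most without WT 3, and 0 to 10 lower, the most again without WT 3), and per recovered read 27 were higher and 0 lower (median 0.75 beside 0.74 for all genes). Of 50 replication and mitosis genes 4 were lower and 0 higher [0] (median -0.29, and 0.44 per recovered read, where 0 were lower and 2 higher), with 1 lower without DKOITD 2 or DKOITD 3 and 2 without DKOITD 4, WT 2 or WT 3. Hmgb2, a chromatin protein of dividing cells, was at 83.0, 111, 70.2 and 102 and 178, 216 and 256 (log2 difference -1.24 ± 0.27 (SE), adjusted p = 0.0132). Mki67 was at 13.5 to 26.5 in DKOITD and 31.5 to 53.7 in WT, apart but not called (adjusted p = 0.0954). Of 28 sterol and lipid genes 6 were higher (21.4%) and 1 lower, with 3 higher without DKOITD 1, 1 higher without DKOITD 3 and 0 lower without DKOITD 1, DKOITD 3 or WT 2. Abcg1, the exporter of cholesterol, was at 75.2, 58.5, 53.6 and 48.8 and 12.2, 22.6 and 12.3 (log2 difference 1.88 ± 0.34 (SE), adjusted p = 0.00681). A sterol element (CACNCCAC, either strand) was in 2 of 20 members with a window, against 7.12% of all.

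Polycomb and RUNX complex genes had 1 call. Of 17 tested members 0 were higher [1] and 1 lower (Phf1, -2.37), a share of 5.88% beside 5.27% of all genes. The Phf1 call was lost without DKOITD 1, 2 or 3 or WT 1 or 2 (adjusted p up to 0.101). Suz12, a core subunit of PRC2, was at 3.43, 9.19, 5.39 and 7.14 RPKM in DKOITD and 19.1, 19.5 and 15.3 in WT, apart but not called (adjusted p = 0.0639). Progenitor and lymphoid genes moved in both directions. Of 9 tested stem and progenitor genes 2 were higher (22.2%) and 1 lower (11.1%), beside 7.43% and 5.27% of all genes (median -0.27). Without WT 2 or WT 3, 2 were lower. Prom1, which encodes the membrane protein CD133, was at 0.807, 8.19, 2.09 and 5.78 in DKOITD and 19.7, 31.7 and 28.7 in WT (log2 difference -2.66 ± 0.55 (SE), adjusted p = 0.0112), and every DKOITD library was below every WT library. Cd34, of stem and progenitor cells, was at 6.23, 6.89, 11.6 and 4.63 in DKOITD and at most 0.0659 in WT (log2 difference 2.96 ± 0.49 (SE), adjusted p = 0.0045). Cd48, of most white cells, was at 261 to 449 and 17.6 to 95.5 (log2 difference 2.86 ± 0.46 (SE), adjusted p = 0.0043). Ly6a, which encodes Sca-1, was at 230.2, 0.273, 65.4 and 45.9 and 0.213, 0.0882 and 3.62, with overlap, and did not pass (adjusted p = 0.0709). Of 10 tested early thymic and lymphoid genes 4 were higher (40%) and 2 lower (20%), beside the same shares of all genes. Without DKOITD 1, DKOITD 3, WT 1 or WT 2 the counts were 2 and 0.

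Markers of other cell types differed between libraries. Of the T cell markers Cd3e and Bcl11b were listed at 0 in all 9 libraries, and Cd3d was at 0.0695 to 4.36 RPKM in DKOITD and 4.92 to 11.6 in WT. The B cell gene Pax5 was at 0 in all 9 as well, while Cd79b, a chain of the B cell receptor that some dendritic cells also express, rose (64.2, 57.5, 70.7 and 42.1 against 12.8, 5.16 and 14.0, log2 difference 2.43 ± 0.44 (SE), adjusted p = 0.00669). The 5 defining NK markers summed to 153 RPKM in WT 2 and at most 1.5 in the other libraries. Of the wider NK and cytotoxic list 5 genes were tested, and Klrk1 and Ccl5 were higher and Nkg7 lower (median 3.83). Klrk1, the activating receptor NKG2D, was at 69.0, 7.23, 54.5 and 43.5 in DKOITD and 0, 3.57 and 2.12 in WT (log2 difference 3.83 ± 0.79 (SE), adjusted p = 0.0111), with DKOITD above WT. The calls of Ccl5 and Nkg7 were lost without DKOITD 1, DKOITD 3 or WT 3, and that of Ccl5 also without WT 1 (adjusted p up to 0.0665 and 0.0746). The mean of this list was 5.22, 4.05, 4.78 and 4.38 on the log2(RPKM + 1) scale in DKOITD 1 to 4 and 1.88, 3.96 and 2.39 in WT 1 to 3. Erythroid markers summed to at most 1.40 in DKOITD and to 17.8 to 17157 in WT. Beta-s, a globin gene, was at 17103, 5372 and 17 in WT 1 to 3 and at 0, 0, 0.289 and 0 in DKOITD, and its call (log2 difference -10.12 ± 2.42 (SE), adjusted p = 0.0214) was lost without DKOITD 1, DKOITD 3, WT 1 or WT 2 (up to 0.0779). Megakaryocyte markers were listed at 0 in all DKOITD libraries and reached 101 in WT 1. The part of these cells in the differences was not tested. Some counts of 0 or 1 also moved without 1 library. Without WT 3, 2 monocyte and macrophage, 2 folding, 2 survival and 2 Polycomb and RUNX genes and 1 ribosomal protein gene were lower, and 2 replication genes were higher. Without DKOITD 2, 1 cDC2 gene was lower, and 1 neutrophil receptor gene and 1 actin gene were higher, and without WT 1, 1 Polycomb and RUNX gene was higher.

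The DKOITD libraries did not differ from WT to the same degree. DKOITD 1 and DKOITD 3 held the lowest list means for secondary granule genes, 6.27, 7.74, 6.00 and 7.64 in DKOITD 1 to 4 against 8.69, 8.65 and 8.77 in WT. For class II genes the means were 7.42, 5.94, 7.25 and 7.27 and 4.22, 2.87 and 2.78. DKOITD 2 was the lowest DKOITD library there, and DKOITD 4, the only one whose label number lies in the series of the WT libraries, was close to DKOITD 1 and 3. Without both DKOITD 1 and DKOITD 3, 7 genes were called, 6 higher and 1 lower. Without both DKOITD 2 and WT 2, 771 were called. These 2 fits were chosen after the data were seen. The fit with the series, given next, rests on DKOITD 4 alone against WT. With the label number series in the fit, H2-Aa differed by 8.06 ± 1.6 (SE, adjusted p = 0.149), Cd74 by 7.08 ± 1.23 (0.0911), Lcn2 by -2.22 ± 0.83 (0.429) and S100a9 by -2.37 ± 0.74 (0.35).

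**Figure D5:**
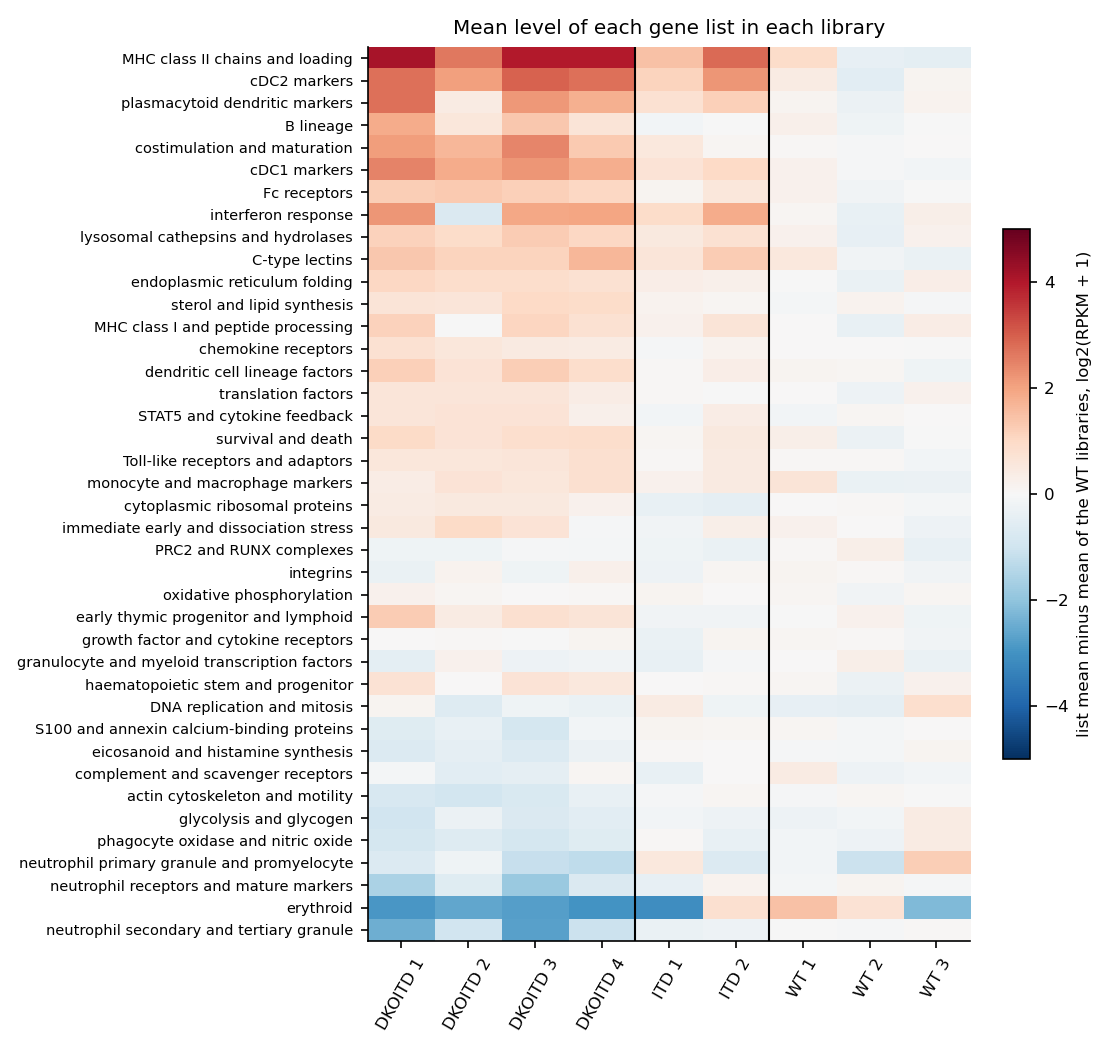
Mean level of each gene list with 8 or more tested members (rows) in each of the 9 libraries (columns), as the difference from the mean of the 3 WT libraries on the log2(RPKM + 1) scale (colour, red above and blue below). Class II and dendritic lists are red in all 4 DKOITD libraries, the interferon list is blue in DKOITD 2 only among them, and the erythroid list is uneven between WT libraries.

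Several genes of no list were among those with the smallest adjusted p or the largest difference. Trf, the iron carrier transferrin, was at 202, 439, 456 and 324 RPKM in DKOITD and 16.2, 8.79 and 19.1 in WT (log2 difference 4.50 ± 0.37 (SE), adjusted p = 9.65e-05). Tmem176a, a membrane protein of dendritic cells, was at 415, 176, 358 and 209.5 and 0, 0 and 5.55 (log2 difference 7.19 ± 0.76 (SE), adjusted p = 0.00052), and the tetraspanin Tspan3 at 168, 125, 283 and 21.4 and listed at 0 in WT (log2 difference 6.75 ± 0.72 (SE), adjusted p = 0.00052). Plxdc2, a membrane protein with a plexin domain, was at 12.3, 25.2, 28.0 and 17.8 and listed at 0 in WT and ITD (log2 difference 4.38 ± 0.45 (SE), adjusted p = 0.00052), and Lpxn, the adhesion protein leupaxin, at 105, 43.0, 91.5 and 60.8 and 2.39, 3.86 and 5.21 (log2 difference 3.94 ± 0.39 (SE), adjusted p = 0.000453). In all 5 the DKOITD libraries lay above every WT library. Among falls, Cd24a, a surface glycoprotein of maturing neutrophils and other cells, was at 48.8, 50.6, 14.7 and 189 and 593, 771 and 614 (log2 difference -3.64 ± 0.60 (SE), adjusted p = 0.00459). Sun2, which links the nucleus to the cytoskeleton, was at 3.74, 5.10, 2.64 and 5.87 and 32.3, 45.0 and 38.4 (log2 difference -2.92 ± 0.37 (SE), adjusted p = 0.00137). Vasp, which extends actin filaments, and Dgat1, which makes triglycerides, fell by 3.14 and 3.47. Mgst2, a glutathione transferase that can make leukotriene C4, was at 49.1, 77.6, 33.6 and 105 and 312, 335 and 391 (log2 difference -2.49 ± 0.35 (SE), adjusted p = 0.00272). No DKOITD library reached a WT library in these falls.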

How the data were processed

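Mac1+ bone marrow cells were measured by Smart-seq2 RNA sequencing, with 100 sorted cells per library, per the labels' protocols. The values analysed are RPKM per gene symbol, deposited by the authors in 1 table of 9 libraries. The submitters' processing notes name STAR 2.4.2a, SAMtools 1.1, HTSeq 0.6.1p1 and the build mm10, without roles. Columns were assigned by their names, and groups came from the titles. No per-sample column was left over (0 columns).

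Genes that reached an RPKM of 1 in 2 or more of the 9 libraries were tested as log2(RPKM + 1), a scale that understates the change of low genes. One limma fit (3.58.1, R 4.3.3, with a trend of variance on level) held the 3 groups and gave the DKOITD minus WT contrast, with Benjamini-Hochberg adjustment over all 10868 genes and a threshold of 0.05. In the self-test, 20 simulated tables of 10868 genes with 200 changed genes spread evenly over the fold sizes below were fitted: 71.5% of genes changed 8-fold, 34.5% of those changed 4-fold and 1.87% of those changed 2-fold were called, and 3.51% of calls were false. So a gene that was not called may still differ by 2-fold or 4-fold. Values are whole multiples of what 1 read is worth for 99.98% of values (tolerance 0.0001 reads), which gave the reads per library. The library size implied by the deposited scale differs from these reads, and its ratio to them was 1.13 to 1.44 in DKOITD and 0.703 to 0.810 in WT, so rescaling per recovered read was 1 alternative. No 2 libraries were identical (highest correlation 0.931).

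Named genes are the targeted and sort marker genes, the 15 largest rises and 15 largest falls without overlap, the 10 smallest adjusted p in each direction, up to 4 called members per list and direction, and defining markers near 0. Named outside this rule, after their values were seen, were Actb, Anxa1, Apoe, Bcl2, Calr, Cd40, Cd86, Cebpa, Ciita, Cish, Creld2, Ctsa, Ctss, Ctsz, Cybb, Dnajc3, Elane, H2-DMa, H2-DMb1, H2-Eb2, H2-K1, H2-Oa, H2-Ob, Hsp90b1, Hspa5, Ifi30, Ifngr1, Irf7, Irgm1, Ldha, Mki67, Mpo, Pim1, Psap, Pygl, Rfx5, Rpl4, Slc2a3, Suz12 and Tkt. Ccr2, Fcgr1 and Ms4a6c were also named after their values were seen. The comparison, its members and the 43 gene lists were chosen with earlier results of these data known. Some items within the rule are not reported here. Some genes belong to several lists. Of 1068 distinct list members, 1047 were in the table and 835 had a RefSeq promoter window (GRCm38.p6), in which 9 motifs were searched. Alternatives were another pseudocount, other minimum levels, each library left out, the 7 libraries alone, a replicate block, quantile normalization, rescaling per recovered read, library weights and the label number series in the fit.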

Additional observations from a re-analysis of the deposited data

Results flagged for a closer look

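Within the 4 DKOITD libraries, 15 of 172 values tested (named genes and list means) had a library farther from the others than the 95% critical value of Dixon's test allows, and chance alone gives about 1 in 20. DKOITD 2 was the lowest library in 9 of them, on the log2(RPKM + 1) scale: Cd74 at 11.73, H2-Aa at 11, H2-Ab1 at 11.33, H2-Eb1 at 9.72, H2-DMb1 at 7.15, Ctss at 10.32, Cd209a at 8.48, and the list means of MHC class II (5.94) and of the interferon response (3.0). Most of these are class II genes. DKOITD 2 also had the fewest reads (2825728), and the part of depth in these values was not tested. DKOITD 4 stood apart as the highest library for Hvcn1 (3.72) and Tkt (6.28) and as the lowest for Pdia4 (4.46) and for the mean of the translation factors (5.48). DKOITD 1 was the highest for the mean of the eosinophil, basophil and mast cell list (1.29, 2 genes tested). DKOITD 3 was the one DKOITD library with a Beta-s value above 0 (0.37).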

How the results depend on the processing

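The 1380 called genes kept their direction under every alternative that tested them, except 1 with the label number series in the fit. The stricter filter on low values left 1264 of them to test. Because these genes were chosen for their difference in the same libraries, their kept directions add little to the calls. The number of calls moved. Without a filter on low values 733 genes were called (450 higher, 283 lower) and 12 secondary granule genes lower, where 15566 genes were tested. Per recovered read 2772 were called (2525 higher, 247 lower). With the label number series in the fit 4 genes were called, 4 higher and 0 lower, with 0 class II genes higher and 0 secondary granule genes lower (1065 genes at an unadjusted p under 0.05 in limma). Of the alternatives chosen after the data were seen, the one without both DKOITD 1 and DKOITD 3 called 7 genes (6 higher, 1 lower, 0 class II higher, 0 secondary granule lower, 1677 at an unadjusted p under 0.05), and the one without both DKOITD 2 and WT 2 called 771 (483 higher, 288 lower). Fewer libraries remain there, and with the series term DKOITD 4 alone sets the difference from WT. The causes of the other moves were not tested.

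Without 1 library at a time, 537 to 1955 genes were called, 317 to 1170 higher and 220 to 785 lower, with 13 to 14 class II genes higher and 16 to 29 secondary granule genes lower. Of 129 called genes named in the text (Ccr2, Fcgr1 and Ms4a6c not counted), 109 stayed called without each library. These genes were in large part chosen for a small adjusted p or a large difference. Their share therefore does not stand for all calls. Of all 1380 called genes, 289 higher and 198 lower ones stayed called.

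Deviations from the group means had correlations of -0.02, 0.07 and 0.06 between same-numbered DKOITD and WT libraries. Between differently numbered ones they were -0.13 to 0.17. No sign of a pairing was seen, but with so few libraries this check cannot exclude one. With the replicate block 884 genes were called (472 higher, 412 lower), and Ezh2 differed by -0.000201.

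Several genes that did not pass changed sign. Ezh2 (0.14) ranged from -0.52 to 0.71 without 1 library, was -0.16 after quantile normalization and -0.51 without both DKOITD 1 and DKOITD 3. Elane ranged from -1.17 to 1.36 without 1 library, and was -1.38 with the series term, -0.18 with library weights, -0.27 without both DKOITD 1 and DKOITD 3 and -1.44 without both DKOITD 2 and WT 2. Mpo was -0.63 with the series term and -0.18 without both DKOITD 2 and WT 2. Also with the series term, Cd86 was -0.77 and C1qa 0.90. Actb was 0.35 after quantile normalization and 0.24 per recovered read, Bcl2 -0.17 after quantile normalization, and Ldha 0.43 and Ly6c2 0.11 per recovered read. Csf1r ranged from -0.083 to 0.77 without 1 library.

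Reads were fewest in DKOITD 2 (2825728, with 11484 genes above 0, beside 10484 to 11214 in WT). They were also fewer in every DKOITD library than in any WT library. The part of depth in the values of low genes was not tested.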

Other observations

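The 2 ITD libraries, which no comparison above tests, held the following values. Cd209a was at 189 and 569 RPKM, Tmem176a at 5.52 and 52.7, and Trf at 93.3 and 145. Ccr7, Socs2, Plxdc2 and Il7r were listed at 0 in both. Lcn2 was at 5654 and 6505, and Cd24a at 446 and 472. The mean of the class II list was 1.45 and 2.82 log2 units above the WT mean in ITD 1 and ITD 2.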
